A study of Mus musculus with 2 samples.

Results

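The genes described here are 10 transcriptional targets of the tumour suppressor p53 that act in feedback on p53, in cell cycle arrest and in the surrounding stress response. They were chosen by symbol, as the rows named Cdkn1a, Mdm2, Mdm4, Ccng1, Ppm1d, Sesn1, Sesn2, Zmat3, Aen and Trp53inp1, each found once among the 32285 genes of both count matrices. The study examined the 3′-end processing of U6 snRNA, a core component of the spliceosome, and asked with these libraries whether embryonic cell types form without Usb1, the exonuclease that trims the 3′ end of U6 snRNA. Whole mouse embryos at embryonic day 9.5 were dissociated and barcoded in droplets with a 3′ chemistry, giving 1 library from wild-type embryos (Usb1+/+) and 1 from Usb1-null embryos (Usb1-/-, a germline knockout made by CRISPR/Cas9). After filtering, 15161 wild-type cells with 21732106 unique molecular identifiers (UMIs, each marking 1 captured transcript) and 13018 Usb1-null cells with 33383886 UMIs were compared, out of 15162 and 13034 barcodes in the matrices. The study gives fewer wild-type and slightly more Usb1-null cells after quality control, so the cells compared here are not exactly its own.

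With 1 library per genotype, the values below compare these 2 libraries, no p-value was computed, and every interval is a 95% interval that covers counting error only. How many embryos were pooled for a library was not stated in the sources used here. Xist gave 53276 UMIs in the wild-type and 26 in the Usb1-null library, and Y-linked genes 14 and 23463, so the libraries also differed in sex. Median UMIs per cell were 1243 in the wild-type and 2300 in the Usb1-null library, and 61 barcodes occurred in both. The median mitochondrial share was 0.309% and 0.104%, and the labels give nuclear RNA as the molecule although whole cells were loaded per the protocol. The effects of genotype, sex, embryo, depth and preparation cannot be told apart here. Usb1 itself gave 68 UMIs (3.13 CPM) in the wild-type and 47 UMIs (1.41 CPM) in the Usb1-null library, a ratio of 0.450 (0.303 to 0.662), where CPM are the UMIs of a gene scaled to 1000000 UMIs of the library. The edit was made near the start of the gene and the chemistry reads transcript ends, so this count is no direct check of the genotype. A cluster of 50 mature hepatocyte-like cells, a cell type that embryos of this age are not known to hold, came from the Usb1-null library alone. Liver genes were also counted in its other cells, for example in endothelial-like cells, where the 3 that reached 20 UMIs summed to 33.8 CPM against 8.86 CPM in the wild-type, and their origin and their part in other values were not tested.

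p53 is a transcription factor that is kept scarce in unstressed cells and accumulates when DNA or ribosome assembly is damaged. It then switches on genes that halt the cell cycle, repair damage or kill the cell, together with genes such as Mdm2 that shut p53 itself down again. In the mouse embryo this loop is set tightly, and loss of Mdm2 or Mdm4 is lethal before birth unless p53 is removed too.

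p53 binds a pair of adjacent elements called half-sites, each a run of purines, a C, A or T letters, a G and a run of pyrimidines. RefSeq promoter windows of GRCm38.p6, from 250 bases before to 50 bases after an annotated start, were at hand for 8 of the 10 genes, in 12 windows. An exact half-site occurred in the windows of 6 of these 8 genes, against 9.55% of all 27025 genes with a window. A pair of adjacent half-sites with at most 2 mismatches over 20 bases occurred in 2 of the 8, Cdkn1a and Ccng1, against 0.940% of all genes. The half-site consensus reads the same on both strands, so a single pass covers both, and the search was set after some of these windows had been read. The pairs are shown because Cdkn1a and Ccng1 were also among the genes with the largest ratios between the libraries. Of the Cdkn1a windows only the upstream one held the pair, and the one at a start farther downstream held no exact half-site. The Cdkn1a stretch is chr17:29090908-29090967 (+ strand) and the Ccng1 stretch chr11:40755442-40755501 (- strand), both before the annotated start of their window, with the pair in capitals.
Cdkn1a: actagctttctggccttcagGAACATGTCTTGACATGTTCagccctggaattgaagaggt
Ccng1: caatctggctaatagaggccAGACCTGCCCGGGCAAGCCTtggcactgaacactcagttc

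Single exact half-sites lay in the windows of Mdm2 (chr10:117710925-117710954, - strand), Aen (chr7:78895927-78895956, + strand), Sesn1 (chr10:41887256-41887285, + strand, in its downstream window only) and Ppm1d (chr11:85311112-85311141, + strand). They are shown, with the half-site in capitals, because Mdm2 and Aen were higher in the Usb1-null library whereas Sesn1 and Ppm1d were not, so genes on both sides of a ratio of 1 held a half-site.
Mdm2: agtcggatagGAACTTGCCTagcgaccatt
Aen: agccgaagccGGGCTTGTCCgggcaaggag
Sesn1: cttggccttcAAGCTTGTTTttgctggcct
Ppm1d: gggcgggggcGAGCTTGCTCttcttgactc
The windows of Mdm4 and Sesn2 held no exact half-site. A match in letters does not show that p53 binds there, and p53 elements outside a window, such as the well-known ones in the first intron of Mdm2, were not searched.

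Over all cells, 8 of the 10 targets were higher in the Usb1-null library with an interval above 1, where 25.5% of the 18921 genes with at least 20 UMIs were. Sesn1 was lower with an interval below 1 (25.7% of genes were), and Ppm1d was the gene whose interval held 1. The differences were modest. The median log2 ratio over the 10 genes (Usb1-null against wild-type, 1 CPM being added to both levels) was 0.44, against 0.01 over all genes tested. Cdkn1a, Sesn2 and Ccng1 were at least 1.5-fold higher, which 12.1% of all genes were, and 3.87% of the 11980 genes with wild-type levels in the range of the targets. The summed level of the 10 genes was 522 CPM in the wild-type and 641 CPM in the Usb1-null library.

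**Figure D1:**
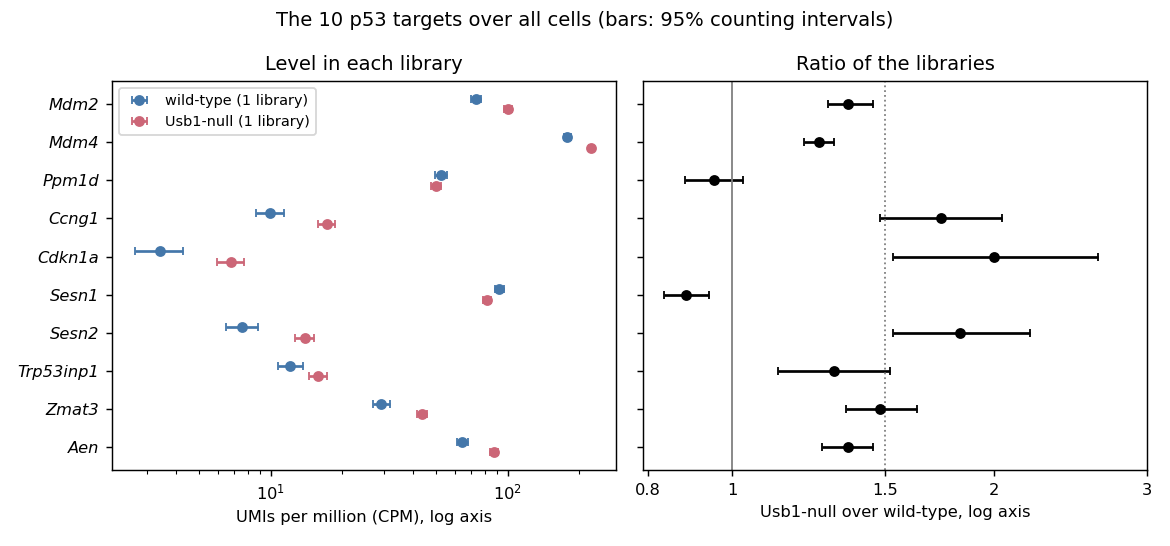
Levels of the 10 p53 targets over all cells (left, CPM on a log axis) and their Usb1-null over wild-type ratios (right, log axis, solid line at 1 and dotted line at 1.5), with points for the 1 library per genotype and bars for 95% counting intervals. All points but those of Ppm1d and Sesn1 lie right of the solid line, and Cdkn1a, at 2.00, lies farthest right.

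Among the feedback genes, Mdm2, the ubiquitin ligase that targets p53 for destruction, stood at 73.3 CPM (1594 UMIs) in the wild-type and 100.1 CPM (3341 UMIs) in the Usb1-null library. Its ratio was 1.36 (1.29 to 1.45). Mdm4, the partner of Mdm2 that masks the activation domain of p53, stood at 178 CPM and 225 CPM, a ratio of 1.26 (1.21 to 1.31). A 3′ assay counts all Mdm4 splice forms together and does not say which of them differed. Ccng1, cyclin G1, which recruits a phosphatase to Mdm2, was at 9.94 CPM and 17.3 CPM, a ratio of 1.74 (1.48 to 2.04). Ppm1d, the phosphatase Wip1 that removes activating phosphates from p53 and its kinases, was at 52.1 CPM and 49.6 CPM, a ratio of 0.952 (0.882 to 1.03). Of the 4 feedback genes, 3 were thus higher beyond counting error and Ppm1d was not.

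Cdkn1a encodes p21, the inhibitor of cyclin-dependent kinases through which p53 arrests the cell cycle. It was the scarcest of the 10, with 74 UMIs (3.41 CPM) in the wild-type and 227 UMIs (6.80 CPM) in the Usb1-null library, and it had the largest ratio, 2.00 (1.53 to 2.63). A log2 ratio as high as its 0.82 was reached by 2.39% of all genes tested.

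Sesn1 and Sesn2 encode sestrins, which restrain mTORC1 signalling and take part in the antioxidant response, and they differed in direction. Sesn1 stood at 92.1 CPM in the wild-type and 81.7 CPM in the Usb1-null library, a ratio of 0.886 (0.836 to 0.940). Sesn2, which is also induced by ATF4 when amino acids are short, stood at 7.59 CPM and 13.9 CPM, a ratio of 1.83 (1.53 to 2.20). Of the ATF4 stress response list, 3 of 12 counted genes were at least 1.5-fold lower (6.71% of all genes were) and 1 was at least 1.5-fold higher, with a median log2 ratio of -0.10. Trp53inp1, a nuclear protein that promotes phosphorylation of p53 and autophagy, was at 12.1 CPM and 15.8 CPM, a ratio of 1.31 (1.13 to 1.52).

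The remaining targets act on nucleic acids. Zmat3, a zinc-finger protein that binds AU-rich RNA and alters splicing, was at 29.3 CPM in the wild-type and 43.5 CPM in the Usb1-null library, a ratio of 1.48 (1.35 to 1.63). Aen, an exonuclease of the apoptotic response, was at 64.4 CPM and 87.5 CPM, a ratio of 1.36 (1.27 to 1.45). Both genes were thus higher, though short of 1.5-fold.

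Gene length was also compared. Cdkn1a (ratio 2.00) and Ccng1 (1.74) span under 10 kb and Mdm4 (1.26) and Sesn1 (0.886) over 40 kb, and the 6 targets of intermediate length did not follow an order of length. Among all genes with wild-type levels in the range of the targets, the median log2 ratio was -0.19 below 10 kb and 0.02 above 40 kb, whereas the share at least 1.5-fold higher was 4.56% below 10 kb and 3.52% above 40 kb. Centred on genes of like length and level, the median over the 10 targets was 0.48.

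The cells were then grouped into 20 clusters without using the 10 targets, and the 17 clusters that held 100 or more cells of each library were compared. Of these, 11 carried a marker-based name, given with the suffix "-like". In a comparison of sums, fewer cells with RNA of a gene and less RNA per cell cannot be told apart. In 113 of the 144 pairs of target and cluster with at least 20 UMIs, the ratio was above 1, against 48.4% of such pairs over all genes, and in 38 pairs the target was at least 1.5-fold higher, against 9.77%. Most of these 38 had fewer than 20 wild-type UMIs and reached the minimum only with their Usb1-null counts. With a minimum of 50 UMIs, the share at least 1.5-fold higher was 19.6% of 112 pairs, in place of 26.4%. The pairs share their cells and libraries and are not independent.

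Mdm4 and Aen were higher in the Usb1-null library in all 17 clusters. Of the 4929 genes counted in every cluster, 4.91% were higher in all of them. The ratios of Mdm4 ran from 1.11 in surface ectoderm-like cells to 1.72 in cluster 15, and those of Aen from 1.11 in cluster 5 to 2.57 in primitive erythroid-like cells. Mdm2, also counted in every cluster, was higher in 15 of 17. With no minimum count, Cdkn1a was higher in 11 of the 17 clusters, and it was higher in 4 of the 6 in which it reached 20 UMIs. In none of these 6 did the wild-type count alone reach 20, so the minimum favours clusters with high Usb1-null counts. Ccng1, again with no minimum count, was higher in 16, Zmat3 in 16, Sesn2 in 15 and Trp53inp1 in 11. The lower values of Ccng1 and Sesn2 rested on few UMIs, namely a Ccng1 ratio of 0.841 in cluster 15 (3 and 4 UMIs) and Sesn2 ratios of 0.687 in yolk sac and hepatic endoderm-like (7 and 11 UMIs) and 0.749 in intermediate mesoderm-like cells (2 and 3 UMIs). Sesn1 was higher in 3 of 17 clusters and Ppm1d, with no minimum count, in 9. An interval below 1 was found for Ppm1d in spinal cord progenitor-like cells, at 0.694 (0.554 to 0.871), and for Sesn1 in somite and sclerotome-like cells, at 0.820 (0.697 to 0.966).

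**Figure D2:**
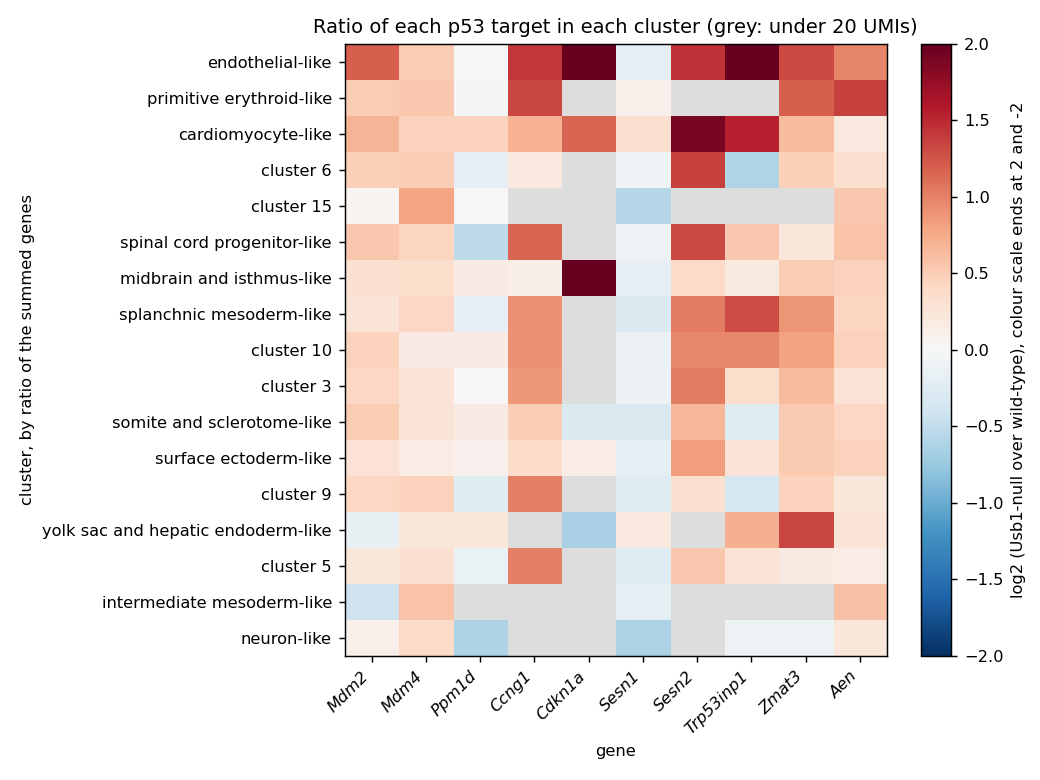
Log2 ratio of Usb1-null over wild-type for each p53 target (columns) in each of 17 clusters (rows, ordered by the ratio of the summed targets), with red for higher and blue for lower in the Usb1-null library and grey for fewer than 20 UMIs. The endothelial-like row is the reddest, with Ppm1d and Sesn1 as its pale exceptions, and the neuron-like row holds no strong red.

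The ratio of the 10 targets summed was largest in endothelial-like cells, the lining of blood vessels. The sum there was 476 CPM over 903 wild-type cells and 825 CPM over 798 Usb1-null cells, and its ratio 1.73 (1.59 to 1.89). In the other 16 clusters the ratio ran from 1.00 in neuron-like cells (0.830 to 1.21) to 1.56 in primitive erythroid-like cells (1.35 to 1.79). Dividing the ratio in a cluster by that in all other cells gave 1.46 (1.33 to 1.59) for endothelial-like, 1.27 (1.10 to 1.45) for primitive erythroid-like and 1.18 (1.04 to 1.33) for cardiomyocyte-like cells. The quotient was 0.814 (0.677 to 0.979) for neuron-like cells and 0.906 (0.834 to 0.984) for cluster 5. It held 1 within its counting interval in the other 12 clusters.

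**Figure D3:**
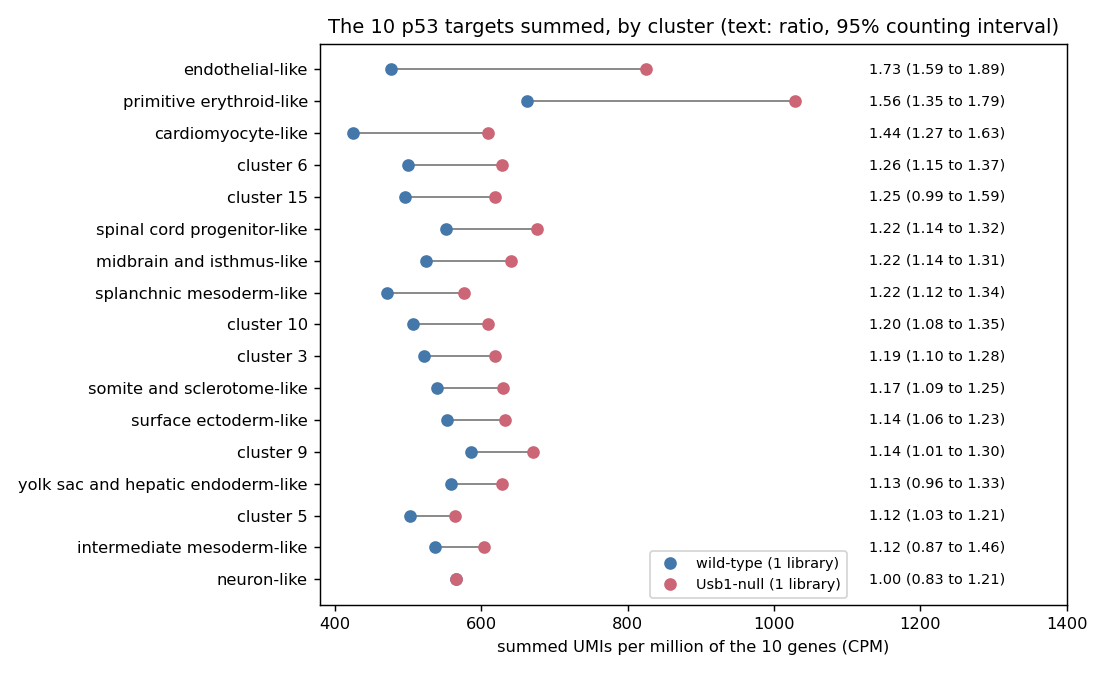
Summed level of the 10 p53 targets in each of 17 clusters, in CPM, for the wild-type (blue) and the Usb1-null library (red), with the ratio and its 95% counting interval at the right. The ratio is largest in endothelial-like cells, at 476 and 825 CPM, and the points coincide in neuron-like cells.

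In endothelial-like cells 7 of the 10 targets had Usb1-null levels 1.5-fold or more above wild-type, against 10.1% of the 11849 genes counted there. All 10 targets reached 20 UMIs in this cluster, but Cdkn1a, Trp53inp1 and Sesn2, 3 of the 7, had fewer than 20 in the wild-type and reached the minimum only through the Usb1-null library. The other 4 of the 7, Mdm2, Ccng1, Zmat3 and Aen, had 27 or more UMIs in the wild-type. Cdkn1a gave 6 UMIs (4.09 CPM) in wild-type and 62 UMIs (26.2 CPM) in Usb1-null endothelial-like cells, a ratio of 6.41 (2.79 to 18.1). Trp53inp1 gave 9 UMIs (6.13 CPM) and 66 UMIs (27.9 CPM), a ratio of 4.55 (2.26 to 10.4). Mdm2 stood at 84.5 CPM and 193 CPM there, a ratio of 2.28 (1.87 to 2.81), so the main inhibitor of p53 was among the higher genes.

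Of the others, Sesn2 had a ratio of 2.73 in these cells (1.54 to 5.15), Ccng1 2.67 (1.74 to 4.22), Zmat3 2.50 (1.72 to 3.73), Aen 1.96 (1.55 to 2.51) and Mdm4 1.41 (1.20 to 1.65). Ppm1d, at 1.01 (0.723 to 1.42), and Sesn1, at 0.886 (0.690 to 1.14), were the exceptions, as they were over all cells. The ratio in endothelial-like cells exceeded that in all other cells, with an interval of the quotient above 1, for 6 targets, namely Cdkn1a, Trp53inp1, Mdm2, Zmat3, Ccng1 and Aen, against 6.30% of the 11841 genes compared in this way. For Cdkn1a the quotient was 4.05 (1.67 to 9.80), and for Mdm2 1.78 (1.45 to 2.19). No other cluster of the 17 had more than 1 target with such a quotient.

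**Figure D4:**
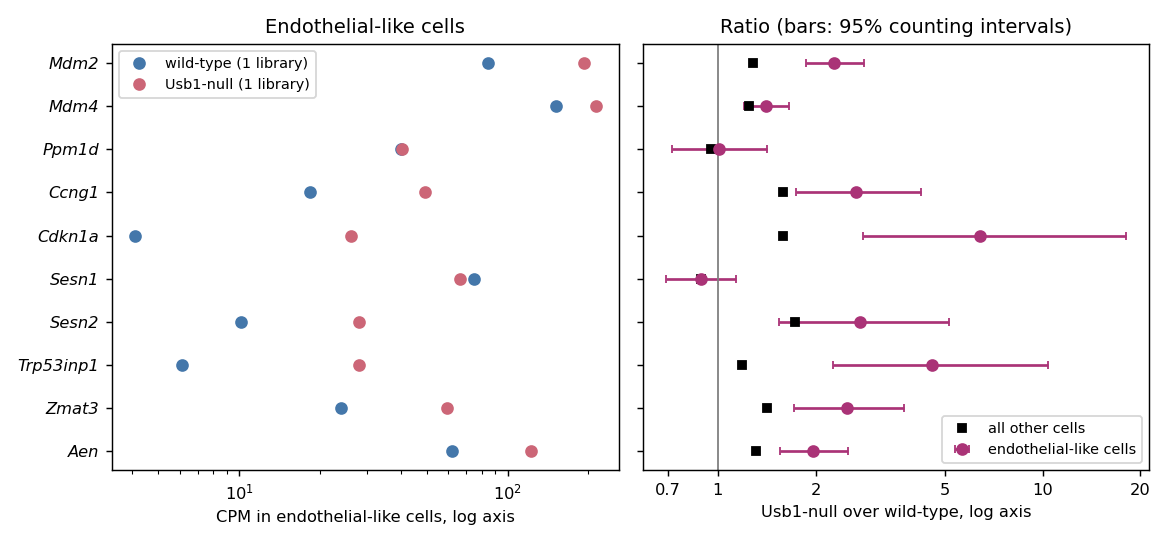
The 10 p53 targets in endothelial-like cells, as CPM in the wild-type (blue) and Usb1-null (red) library on a log axis (left) and as Usb1-null over wild-type ratios with 95% counting intervals (right, purple), beside the ratios in all other cells (black squares). Cdkn1a has the largest endothelial-like ratio, 6.41, beside 1.59 in all other cells, whereas the purple and black points of Sesn1 coincide.

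The endothelial-like name rested on all 7 of its markers, and those markers had ratios from 0.688 to 1.02. Cdh5, VE-cadherin, had a ratio of 1.02, Kdr, the VEGF receptor, 1.02 and Tek, the angiopoietin receptor, 1.02, whereas Emcn had 0.858, Pecam1 0.855, Egfl7 0.781 and Esam 0.688. Immediate early and other dissociation stress genes summed in endothelial-like cells to 183 CPM (wild-type) and 195 CPM (Usb1-null). Of the 7 counted there, 4 had a ratio above 1, with a median log2 ratio of 0.29, and their part in the ratio was not tested. With called doublets removed from the cluster the ratio of the summed targets was 1.89, and it ran from 1.73 to 1.75 in the clusters that held most of these cells under other clusterings.

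The endothelial-like cluster held 6.75% of wild-type and 7.08% of Usb1-null UMIs. It held 8.11% of wild-type and 27.3% of Usb1-null Cdkn1a UMIs. Outside it, Cdkn1a stood at 3.36 CPM and 5.32 CPM, a ratio of 1.59 (1.19 to 2.13), and Mdm2 at 72.5 CPM and 93.0 CPM, a ratio of 1.28 (1.20 to 1.37). Outside it, 8 targets still had an interval above 1 (25.0% of genes had), and the median log2 ratio of the 10 was 0.37. The higher levels were therefore not limited to endothelial-like cells, and the lowest ratio of these 8 was that of Trp53inp1, 1.19 (1.02 to 1.39).

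Among other p53 targets counted in endothelial-like cells, 6 of 11 cell death targets were at least 1.5-fold higher and 3 at least 1.5-fold lower. Of all genes counted there, 10.1% were higher and 9.60% lower by that fold. Of the 6 higher targets, Apaf1 (1.78) alone had 20 or more wild-type UMIs, and the other 5, Eda2r, Bbc3, Pidd1, Phlda3 and Trp53i11, reached the minimum only through the Usb1-null library. Eda2r, a death-domain receptor of the TNF family, was at 11.6 CPM and 84.6 CPM, a ratio of 7.30 (4.45 to 12.8). Bax, the pore-forming effector of mitochondrial death, was lower, at 72.9 CPM and 44.4 CPM, a ratio of 0.609 (0.461 to 0.805). Of the repair, metabolism and other targets, 9 of 16 were at least 1.5-fold higher and 1 lower, against the same 10.1% and 9.60% of genes. Btg2, an antiproliferative gene, had a ratio of 3.66 (1.86 to 8.03), and Trp53cor1, the lincRNA-p21 locus next to Cdkn1a, 3.35 (1.69 to 7.38), each with 10 wild-type UMIs. Trp53 itself was at 60.0 CPM and 106 CPM in these cells, a ratio of 1.77 (1.38 to 2.28), whereas over all cells it was at 68.4 CPM and 69.0 CPM, a ratio of 1.01 (0.945 to 1.08). Of the 22 mitosis and S phase genes that p21 is known to repress through the DREAM complex, none was at least 1.5-fold higher there and 1 was at least 1.5-fold lower, with a median log2 ratio of -0.09.

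Primitive erythroid-like cells, the first red blood cells, had the next largest ratio, with summed targets at 662 CPM over 592 wild-type and 1029 CPM over 182 Usb1-null cells. The dissociation stress genes summed there to 104 CPM and 175 CPM, and their part in the ratio was not tested. Aen led there, at 87.4 CPM and 225 CPM, a ratio of 2.57 (1.82 to 3.65), followed by Ccng1 at 2.52 (1.08 to 6.07) and Zmat3 at 2.28 (1.03 to 5.14). Mdm2 was at 94.8 CPM and 134 CPM, a ratio of 1.42 (0.955 to 2.09). Cdkn1a gave 2 and 5 UMIs, too few for a comparison. Trp53inp1 gave 5 and 4, so the leading targets of endothelial-like cells were not countable in erythroid-like cells.

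Cardiomyocyte-like cells had summed targets at 424 CPM and 609 CPM, a ratio of 1.44 (1.27 to 1.63), and the ratios of the 10 targets ran from 1.14 for Aen to 3.72 for Sesn2. Of all genes counted there, 52.7% had a ratio above 1. Cdkn1a (5 and 18 UMIs), Sesn2 (3 and 18) and Trp53inp1 (4 and 19) reached the minimum of 20 UMIs only through the Usb1-null library, and with called doublets removed 7 targets reached it. Mdm2 was at 59.9 CPM and 96.6 CPM, a ratio of 1.61 (1.17 to 2.26). The interval of Sesn2 was wide (1.09 to 19.7). Ppm1d had a ratio of 1.38 (0.861 to 2.26) and Sesn1 1.26 (0.924 to 1.73), so both intervals held 1.

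In neuron-like cells the summed targets were at 565 CPM in both libraries. The 7 targets counted had ratios from 0.645 for Sesn1 (0.373 to 1.09) and 0.654 for Ppm1d (0.350 to 1.19) to 1.30 for Mdm4 (0.939 to 1.79), and the interval of each held 1. These cells held the highest levels of Trp53inp1 in both libraries, 60.9 CPM (26 UMIs) in the wild-type and 56.8 CPM (22 UMIs) in the Usb1-null library. With 322 and 154 neuron-like cells, a ratio of the summed targets up to 1.21 lies within counting error.

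Cdkn1a was counted in 6 of the 17 clusters. By level in the wild-type library, yolk sac and hepatic endoderm-like cells came first with 28.7 CPM (11 UMIs, 14.3 to 51.3), ahead of intermediate mesoderm-like cells with 17.7 CPM (3 UMIs, 3.65 to 51.8) and neuron-like cells with 7.03 CPM (3 UMIs, 1.45 to 20.5). The intervals of these neighbours overlap. The lowest wild-type values were 0 UMIs in cluster 15, 1 UMI (0.488 CPM) in spinal cord progenitor-like cells and 1 UMI (0.526 CPM) in cluster 5. In the Usb1-null library, endothelial-like cells came first with 26.2 CPM (20.1 to 33.6), then yolk sac and hepatic endoderm-like cells with 18.2 CPM (10.4 to 29.6) and primitive erythroid-like cells with 13.7 CPM (5 UMIs, 4.45 to 31.9). The lowest there were cluster 10 with 1.33 CPM (2 UMIs), cluster 3 with 2.61 CPM (8 UMIs) and cluster 5 with 2.63 CPM (8 UMIs). Endothelial-like cells thus stood first in the Usb1-null library, while their wild-type level of 4.09 CPM was near that of the whole library. In yolk sac and hepatic endoderm-like cells the Cdkn1a ratio was 0.636 (0.277 to 1.52) and in somite and sclerotome-like cells 0.819 (0.390 to 1.75). Set against the ratio in all other cells, the quotients were 0.289 (0.128 to 0.655) and 0.357 (0.170 to 0.752). In midbrain and isthmus-like cells the Cdkn1a ratio was 6.68 (1.63 to 58.8) from 2 and 21 UMIs, so the minimum was reached only through the Usb1-null library. The quotient there was 3.58 (0.818 to 15.6), and its interval held 1.

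The genes whose level across the 34 sums of cluster and library was most like that of Cdkn1a were Stx7 (Pearson r of 0.67), Arhgap21 (0.63), Cept1 (0.62), Oxsr1 (0.62) and Actr3 (0.61). For the summed targets they were Wapl (0.87), Ranbp2 (0.84), Mki67 (0.82), Ppp4r3b (0.79) and Tex14 (0.79). The points share 2 libraries and differ in depth, so these values are descriptions. Across the 17 clusters the log2 levels of Mdm2 and Cdkn1a had an r of 0.50 in the wild-type and 0.81 in the Usb1-null library, the highest Usb1-null r of all pairs of targets. Other pairs moved in either direction, such as Aen and Cdkn1a from -0.51 to 0.26 and Trp53inp1 and Mdm2 from 0.57 to 0.08. Endothelial-like cells held the highest Usb1-null level of both Mdm2 and Cdkn1a, and r without them was not computed. Between the libraries the levels of Ppm1d had the highest r, 0.88, next to 0.87 for Aen, and those of Cdkn1a the lowest, 0.25, at the low counts given above. Ppm1d was highest in both libraries in cluster 9, at 141 CPM and 119.8 CPM, and r without that cluster was not computed.

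Per cell, the targets were sparse. To compare shares at 1 depth, each cell was thinned to 828 UMIs, which left 12136 wild-type and 12686 Usb1-null cells and dropped 3025 and 332 shallower ones. A UMI of any of the 10 targets was then found in 34.6% of wild-type cells (33.7 to 35.4) and 41.1% of Usb1-null cells (40.2 to 41.9). Without thinning, and with the shallower cells included, the shares were 48.7% and 73.3%. A Cdkn1a UMI was found in 0.272% of thinned wild-type cells (0.187 to 0.382) and 0.583% of thinned Usb1-null cells (0.458 to 0.732), and a Mdm2 UMI in 5.83% and 8.28%. In endothelial-like cells the share with a Mdm2 UMI was 6.20% of 758 wild-type and 14.3% of 791 Usb1-null cells, and that with a Cdkn1a UMI 1 cell and 16 cells. No cell type here could be taken to lack these genes, so the share due to free RNA in the droplets was not measured.

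Cells with a Cdkn1a UMI were compared with cells of the same cluster and depth without one. In the Usb1-null library, the other 9 targets summed were 1.34 times as high in the 74 cells with a Cdkn1a UMI (1.01 to 1.75), and of the 9 Aen alone had an interval above 1, at 1.98 (1.02 to 3.47). The other 8 ran from 0.611 for Sesn1 (0.126 to 1.79) to 3.50 for Trp53inp1 (0.942 to 9.12), with Mdm2 at 0.945 (0.379 to 1.95). In the wild-type library the quotient was 1.07 in 33 such cells (0.599 to 1.77). Mitosis and S phase genes summed had quotients of 0.900 (0.742 to 1.08) in the Usb1-null and 0.969 (0.725 to 1.27) in the wild-type library. The intervals of the libraries overlap, and a difference between them was not detectable at this depth.

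Other lists were read over all cells beside the 10 targets, and the genes named from each are the highest and lowest by log2 ratio with 1 CPM added. Of 16 counted p53 targets of cell death, 7 were at least 1.5-fold higher (12.1% of all genes were) and 1 was at least 1.5-fold lower (6.71%). Their median log2 ratio was 0.31. Eda2r was at 7.59 CPM and 30.5 CPM, a ratio of 4.02, Pmaip1, the BH3-only protein Noxa, had 2.63 and the death receptor gene Tnfrsf10b 1.78, whereas Siva1 had 0.578, Bax 0.707 and Ei24 0.827. Of 18 repair, metabolism and other p53 targets, 3 were at least 1.5-fold higher, where 12.1% of all genes were, and none lower (median 0.18). The highest were Trp53cor1 (1.93), the growth arrest gene Gadd45a (1.78) and Gtse1 (1.61). The lowest were Fdxr (0.908), Plk3 (0.923) and Rps27l (0.931).

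The p53 family, its upstream kinases and cofactors had a median of 0.08. Atm, Ep300 and Chek1 each had a ratio of 1.21, and Trp63 (0.636), Hipk2 (0.845) and Kat5 (0.861) the lowest. Paralogues of the 10 targets, which share ancestry but not all of their p53 control, had a median of -0.11. Ccng2 (1.88), Isg20l2 (1.19) and Ppm1b (1.10) were highest, and Zmat2 (0.696), Cdkn1c (0.806) and Trp53inp2 (0.850) lowest. Of the 22 mitosis and S phase genes, 6 had an interval above 1 (25.5% of all genes had) and 12 below (25.7%), with a median of -0.13. Mki67 (1.44), Pcna (1.19) and Aurkb (1.18) were highest, and Ccnb2 (0.678), Cdc20 (0.701) and Cdk1 (0.788) lowest.

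**Figure D5:**
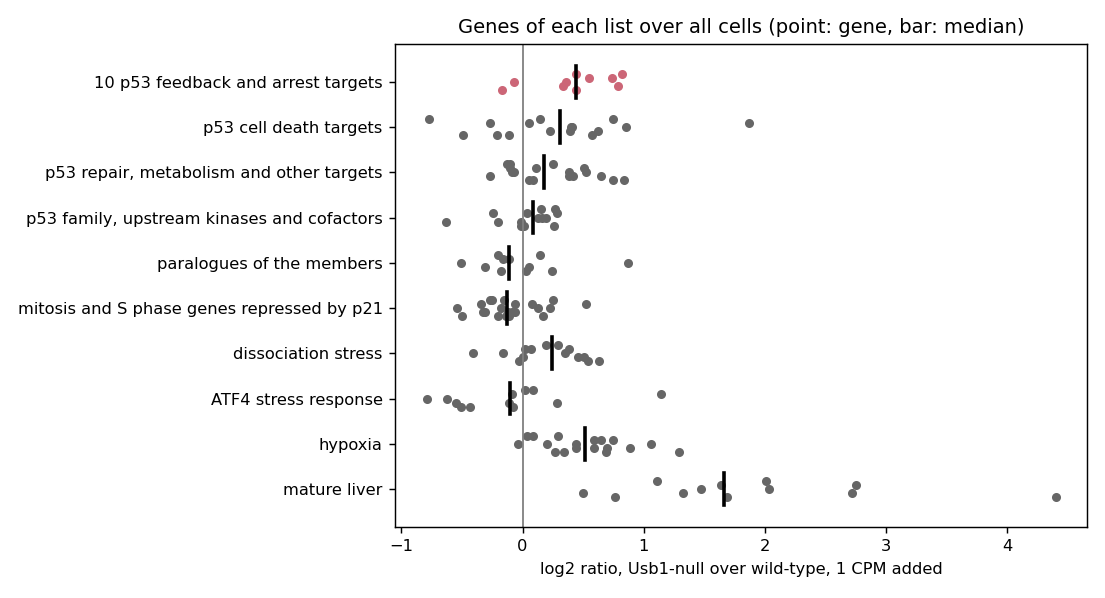
Log2 ratio between the libraries (positive for higher in Usb1-null, after adding 1 CPM) for every counted gene (point) of each list over all cells, with a bar at the median and the 10 p53 targets in red. The median of the 10 targets is 0.44, below that of the hypoxia list at 0.51 and of the mature liver list at 1.67, which was 0.63 with the wild-type cluster shares applied to both libraries.

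Other lists moved with the libraries too. Of 18 hypoxia genes, 9 were at least 1.5-fold higher (12.1% of all genes were), with a median of 0.51. Their sum was 1665 CPM in the wild-type and 1996 CPM in the Usb1-null library. Bnip3 (2.50), Pfkfb3 (2.14) and Vegfa (1.88) were highest and Slc2a1 (0.969), Ldha (1.03) and Higd1a (1.06) lowest. Of 14 dissociation stress genes, 5 were at least 1.5-fold higher, against the same 12.1%, with a median of 0.24. Dusp1 (1.62), Fos (1.57) and Ier3 (1.57) were highest on the log2 scale. Jun (0.750), Atf3 (0.865) and Ier2 (0.980) were lowest, and the list summed to 133 CPM and 132 CPM. In the ATF4 list Cebpb (3.52), Slc7a11 (1.26) and Ppp1r15a (1.07) were highest and Slc3a2 (0.649), Ddit3 (0.661) and Phgdh (0.697) lowest. All 12 mature liver genes were higher, from 14.3 CPM to 97.4 CPM in sum, with Alb, Fabp1 and Mup3 highest on the log2 scale and Car3 (1.62), Fgb (2.04) and Ttr (2.34) lowest. Their median log2 ratio of 1.67 was 0.63 when each cluster was given its wild-type share in both libraries. Without the hepatocyte, erythroid and low-UMI clusters the median over the 10 targets was 0.45, and the part of hypoxia and dissociation genes in their levels was not tested.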

How the data were processed

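Raw UMI counts were deposited by the authors as 1 matrix per library (genes by barcodes) from Cell Ranger (6.1.2 in the file headers, 2.1.1 with mm10 in the submitters' processing notes) and not normalised. Cells with 200 to 6000 genes and under 30% mitochondrial UMIs were kept. Doublets called by Scrublet (6.76% of wild-type and 4.30% of Usb1-null cells) were kept and removed in alternatives. Variable genes without the 10 targets and the other listed genes gave 30 principal components, corrected for library by Harmony, and Leiden clusters at a resolution of 0.6 (Scanpy 1.11.5, leidenalg 0.10.2). A cluster was named from at least 3 raised markers, at least 1 of them among its 10 leading genes, a condition added after the clusters were seen. It stayed unnamed where cell types tied on both counts or where another type had more leading markers. Cell names were derived here anew and may differ from those of the study for that reason.

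UMIs were summed per library and cluster and given as CPM. Counts have exact Poisson, shares exact Clopper-Pearson and ratios exact conditional 95% intervals, and quotients of ratios intervals from the Poisson variance on the log scale. These cover counting error only. The 10 genes and all lists were chosen with earlier results of these data known. From each other list the 3 highest and 3 lowest log2 ratios (1 CPM added) among genes with at least 100 UMIs were named, besides markers of named cells. The endothelial-like values of genes outside the 10, the length check and the level-matched background were chosen after the data had been seen. Coordinates are GRCm38. Reads that overlapping or antisense genes share could not be separated.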

Additional observations from a re-analysis of the deposited data

Results flagged for a closer look

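The ratio of the 10 summed p53 targets between the libraries differed between cell groups beyond counting error in 5 of 17 clusters, each set against all other cells. The quotient of the ratios was 1.46 in endothelial-like, 1.27 in primitive erythroid-like and 1.18 in cardiomyocyte-like cells, 0.906 in cluster 5 and 0.814 in neuron-like cells. The interval of each held no 1, but it covers neither the variation between embryos nor the number of clusters read.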

How the results depend on the processing

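No alternative turned the direction of any target whose interval excluded 1. At the lower fold limit tried, 8 targets were higher, beside 21.1% of genes, and at 2-fold none (0) was, beside 5.62%, since the ratio of Cdkn1a falls just short of 2. The share of genes at least 1.5-fold higher was 22.1% over genes with at least 1 UMI and 4.85% over those with at least 200 UMIs. Shares of cells moved with the thinning, which also changes the cells included. With no thinning a Cdkn1a UMI was found in 0.475% of wild-type and 1.57% of Usb1-null cells (quotient 3.30) and a Ccng1 UMI in 1.37% and 4.16% (quotient 3.03). Thinned to 1200 UMIs, Usb1-null cells held a Cdkn1a UMI in 0.791% of cases and a Ccng1 UMI in 1.96%, and wild-type cells a Ccng1 UMI in 1.17%. The quotients at 828 UMIs were 2.15 and 1.71. The mature liver list had a median log2 ratio of 0.63, in place of 1.67, when clusters were weighted by their wild-type shares. The remaining 79 values that answer a comparison moved by less than their counting interval, for list medians the typical interval of a gene of the list, or by less than 1.5 times for counts.

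Alternatives without cluster 9, with the Usb1-null UMIs thinned to the wild-type total, without several clusters, centred by length, or with doublets removed from single clusters were chosen after seeing the data. No paired analysis was possible because each group has 1 library, and leaving out a library would leave no comparison.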
